A study of Mus musculus with 61 samples.

Results

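Axon guidance ligands and receptors were followed across the histone acetylation and factor binding data of a mouse brain series. The set was chosen by gene name and not by any measured value, as every gene whose symbol marks it as a semaphorin of classes 3 to 7, an ephrin, a Slit, a netrin, a plexin, a neuropilin, an Eph receptor, a Robo, an Unc5 or Dcc. This gave 70 of the 26180 genes with a transcription start site (TSS) in the annotation, made up of 35 ligand genes, 34 receptor genes and the noncoding gene Plxna4os1, which lies within Plxna4 and shares its name.

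Axon guidance cues steer growing axons and migrating cells. Secreted class 3 semaphorins bind neuropilins, which pair with class A plexins as the signalling partner, while membrane-bound semaphorins bind plexins directly. Ephrins and Eph receptors signal in both directions between touching cells, Slits act through Robo receptors, and netrins act through Dcc and Unc5. Many of these genes are also used outside axons, by myelinating cells, blood vessels and immune cells.

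H3K27ac, the acetylated lysine 27 of histone H3 found at active promoters and enhancers, was measured by ChIP-seq in EKO mice, which carry a homozygous CRISPR/Cas9 deletion of the distal Sall1 super-enhancer in the germ line and so in all cells, and in WT mice. Both were C57BL/6J males of 8 to 12 weeks. Whole-cell microglia (CD11b+CD45lowCX3CR1+) gave 2 EKO and 2 WT libraries, and PU1 (microglial), NeuN (neuronal) and Olig2 (oligodendrocyte lineage) nuclei gave 2 EKO and 2 WT libraries each. SALL1 was mapped in EKO, in the wild-derived strains PWK and SPRET and in WT microglia, SMAD4 in microglia of the libraries labelled mutant and of WT, and p300 in 3 WT libraries. The titles of the libraries labelled mutant name a conditional SMAD4 deletion while their descriptions and inputs name EKO. The study's text reports SMAD4 ChIP-seq in WT and EKO microglia only, so these libraries should not be read as SMAD4-deleted. The p300 libraries mix whole-cell microglia (library 1) with PU1 nuclei (libraries 2 and 3), and the SALL1 libraries are labelled microglia where the study's text names nuclei sorted for SALL1 and PU.1. The labels do not say whether the libraries of a group came from different animals, so p-values measure only the spread between these libraries, which may be technical.

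Microglia libraries held 9963454 and 13392915 tags in EKO and 24357795 and 10047696 tags in WT. EKO library 1 stood apart, with windows that held 97.2% of its depth, overlapping windows counted more than once, against 33.2% in EKO library 2 and 54.9% and 39.4% in WT. The nuclei libraries held between 7970059 and 26849350 tags. PU1 WT library 1 also stood apart, with 11149 listed regions against 25990 and 26029 in the EKO PU1 libraries and 36057 in PU1 WT library 2. All 29 tested windows nearest to Sall1 were lower in EKO microglia, which checked the genotype labels. Of the microglia markers, 9 of 10 promoters were higher in PU1 nuclei than in either other type, and all 8 neuron marker promoters were listed at 0 in every PU1 library. At the border macrophage markers (Mrc1, Lyve1, Cd163, Pf4, Ms4a7, F13a1 and Folr2), 18 of 29 windows were higher in EKO microglia, at 4 of the 7 genes, and 0 were lower (0 also at an unadjusted p under 0.05). Their windows summed to 2138 and 774 tags in EKO microglia, against 366 and 269 tags in WT microglia, and their promoters to 1098 to 1432 tags in EKO PU1 nuclei, against 0 to 97.3 tags in WT PU1 nuclei. Cd163 was listed at 0 in all PU1 libraries. Markers of other types went in different directions. At oligodendrocyte lineage markers 9 of 23 windows were lower in EKO microglia (5 at Mbp, 3 at Mog and 1 at Cnp) and 0 higher. At Slc1a3, the only astrocyte marker with tested windows, 14 of 19 were lower. Endothelial markers had 3 higher and 3 lower of 24 windows, and monocyte markers 1 higher and 2 lower of 8. The 1 tested window of a mural marker (Pdgfrb) was higher. The part of such cells in the values below was not tested.

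A selection of the WT SALL1 peaks within called windows of guidance genes is shown as 200 bases of mm10 around the peak centre. The forward strand is given, to set the letters beside the changes in H3K27ac given further on. The first pair lies in windows that gained H3K27ac in EKO microglia and the other sequences in windows that lost it. Capitals mark matches on either strand to the PU.1 core GAGGAA, the AP-1 motif TGANTCA or the C/EBP motif TTGCNNAA.
Plxna1, chr6:89421584-89421783, 59.5 kb upstream of the TSS: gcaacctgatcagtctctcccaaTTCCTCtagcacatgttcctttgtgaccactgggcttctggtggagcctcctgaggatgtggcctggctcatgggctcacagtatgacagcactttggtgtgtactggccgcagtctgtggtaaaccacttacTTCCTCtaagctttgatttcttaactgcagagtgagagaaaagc
Sema6d, chr2:124741056-124741255, 87.4 kb downstream of the TSS: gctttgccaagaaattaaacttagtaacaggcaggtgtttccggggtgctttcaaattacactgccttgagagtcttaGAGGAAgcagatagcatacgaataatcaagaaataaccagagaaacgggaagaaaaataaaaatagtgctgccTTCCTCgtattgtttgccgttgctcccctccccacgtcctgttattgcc
Nrp2, chr1:62679059-62679258, 24.2 kb upstream of the TSS: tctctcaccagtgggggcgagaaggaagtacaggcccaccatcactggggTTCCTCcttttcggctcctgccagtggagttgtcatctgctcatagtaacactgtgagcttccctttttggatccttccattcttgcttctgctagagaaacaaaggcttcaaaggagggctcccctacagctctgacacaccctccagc
Sema4g, chr19:44987526-44987725, 1.7 kb upstream of the TSS: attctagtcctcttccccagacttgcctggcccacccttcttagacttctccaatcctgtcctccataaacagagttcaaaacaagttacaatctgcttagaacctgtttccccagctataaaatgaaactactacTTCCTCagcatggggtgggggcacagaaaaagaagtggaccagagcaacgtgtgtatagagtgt
Plxnc1, chr10:94829527-94829726, 115.0 kb downstream of the TSS: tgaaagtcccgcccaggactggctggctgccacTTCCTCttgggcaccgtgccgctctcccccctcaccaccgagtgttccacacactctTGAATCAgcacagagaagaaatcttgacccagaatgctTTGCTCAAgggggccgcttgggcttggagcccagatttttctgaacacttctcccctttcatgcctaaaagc

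All 5 held the PU.1 core on at least 1 strand, and the Plxnc1 peak also held an AP-1 and a C/EBP match. The peaks not shown included 1 upstream of Sema4b with none of these motifs and 1 at Sema4a with AP-1 but no PU.1 core. The N in TGANTCA stood for any base, and the matches read TGAATCA at Plxnc1 and TGATTCA at Sema4a. Another Nrp2 peak, with the PU.1 core, was also not shown, so the 5 do not stand for all such peaks. Over the 9 SALL1 peaks in called windows of guidance genes, 7 held the PU.1 core, 2 held AP-1, 1 held C/EBP, 4 held the short SMAD motif CAGAC, and 0 held the SMAD palindrome GTCTAGAC or the MEF2 motif. The shares over 15396 WT SALL1 peak windows of the same length were 46.1% for the PU.1 core, 7.6% for AP-1, 13.6% for C/EBP, 38.2% for CAGAC, 0.3% for the palindrome and 7.5% for MEF2. Matches of this kind are a description of the letters, not of bound sites.

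To ask how loss of the Sall1 enhancer changed active chromatin at guidance genes, H3K27ac tags in windows of 1000 bp around open chromatin were compared between EKO and WT microglia. Of 133129 windows, 651 had a guidance gene as the nearest gene, and 185 of the 55285 tested windows (mean above 16 tags per 10000000) did. Of the 185, 14 windows were higher in EKO microglia, where 8.68% of all tested windows were, and 37 were lower, where 7.56% were, in limma on quantile-normalized values (adjusted p under 0.05 after Benjamini and Hochberg, more than 2-fold). The higher windows fell into 8 loci at 7 genes and the lower ones into 24 loci at 18 genes, with Efna5, Nrp2 and Sema4b in both. Windows of 1 locus overlap and share tags, so they are not independent. Distances below are those of the authors' table, to its nearest annotated start, which for genes with several starts need not be the start used for the promoter counts. The median log2 difference, EKO minus WT, was −0.42 over the guidance windows and −0.03 over all windows, and 71.4% of guidance windows had a negative difference against 52.0% of all. In bulk libraries such as these, fewer cells that carry the mark and less mark per cell cannot be told apart.

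The calls rested on the scaling. On the values as deposited, 6 guidance windows were called higher, where 0.814% of all windows were, and 0 lower, where 0.128% were (450 and 71 windows of all tested), with 10 guidance windows above and 5 below 0 at an unadjusted p under 0.05, although all 51 called windows kept their sign. edgeR and DESeq2 on the recovered tags called 20 and 13 guidance windows higher and 33 and 22 lower, beside 5851 and 4290 higher and 3877 and 2837 lower of all 55285. Of the 14 windows higher and 37 lower with limma, edgeR also called 14 and 31, and DESeq2 12 and 20. DESeq2 called none of those lower at Ntn1, Plxnb2, Sema4a, Sema4b, Sema4c, Sema4d and Sema4g, nor those higher at Plxna3. On the values as deposited the median difference was −0.05 over guidance windows and 0.28 over all windows. With limma, 0 windows of any gene were called without EKO library 1 (12 guidance windows higher and 61 lower at an unadjusted p under 0.05) or without WT library 1 (17 and 33). There were 6 guidance windows higher and 16 lower without EKO library 2, and 5 higher and 0 lower without WT library 2 (18 and 41 unadjusted), beside 1260 and 1938 of all windows without EKO library 2 and 1613 and 520 without WT library 2. With 1 library left in a group, that library was assumed to vary like the other group.

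**Figure D1:**
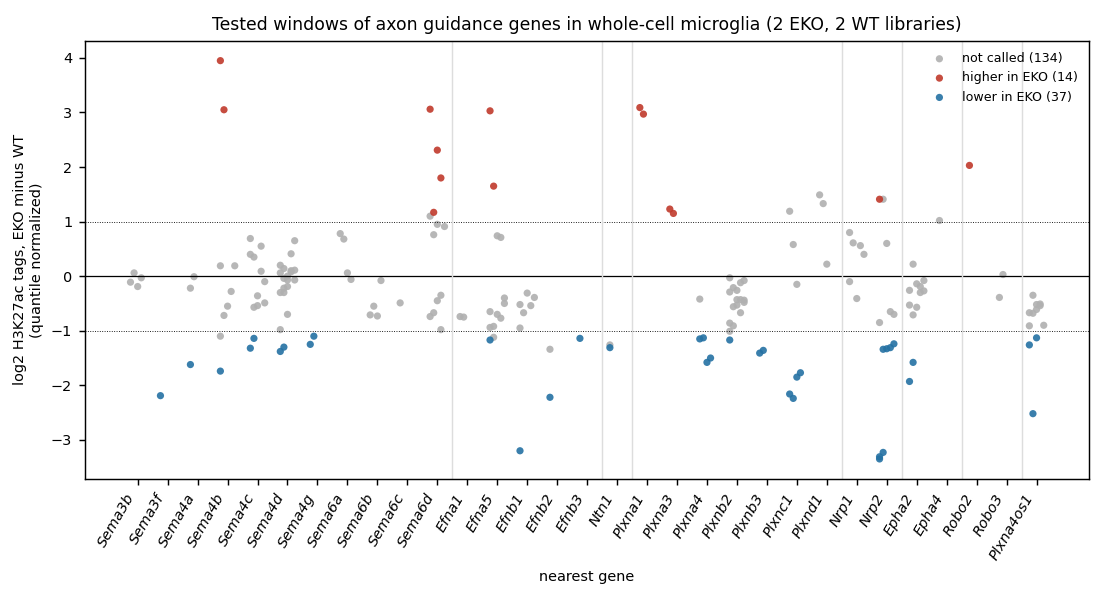
Log2 difference in H3K27ac, EKO minus WT, after quantile normalization, at each of the 185 tested windows of the 31 guidance genes with a tested window, grouped by nearest gene. Red points are the 14 windows higher in EKO, blue points the 37 lower and grey points those not called, and dotted lines mark a 2-fold difference. Nrp2, Plxnc1 and Plxna4 hold several blue points each, and Sema6d holds 4 red points.

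Semaphorins, the largest ligand family, had 73 tested windows at 11 genes, of which 6 were higher and 9 were lower. The semaphorin window with the smallest p lay 7.4 kb upstream of Sema4b, which encodes a transmembrane class 4 semaphorin (chr7:80178956-80179956, intergenic). It held 129 and 35.8 tags in EKO microglia, against 1.64 and 1.99 tags in WT microglia. Both EKO libraries lay far above both WT libraries, with a log2 difference of 3.95 ± 0.51 (SE, n = 2 and 2; limma, Benjamini-Hochberg adjusted p = 9.2e-06). The overlapping window 6.8 kb upstream also gained H3K27ac (log2 3.05), whereas a window 5.3 kb into the gene, in intron 1, lost it, with 8.03 and 11.9 tags in EKO and 29.6 and 20.9 tags in WT microglia. Sema6d encodes a transmembrane ligand of plexin A1. A cluster of 3 overlapping intergenic windows 86.6 to 88.4 kb downstream of its annotated TSS gained H3K27ac, led by the window at chr2:124740474-124741474. That window held 124 and 40.3 tags in EKO microglia, against 4.52 and 4.98 tags in WT microglia (log2 3.06 ± 0.40, limma adjusted p = 1.3e-05). Another Sema6d window, 209 bp into the gene from an earlier annotated start, held 107 and 47.8 tags in EKO and 27.9 and 22.9 tags in WT microglia (log2 1.17 ± 0.29).

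The remaining semaphorin windows called were lower and lay near the genes. Among them only the Sema3f window was also called with DESeq2, and none was on the values as deposited. Sema4c, a class 4 semaphorin that binds plexin B2, lost H3K27ac at 2 windows in its first introns, and the window at chr1:36554249-36555249 held 29.1 and 14.2 tags in EKO microglia, against 35.7 and 42.8 tags in WT microglia (log2 −1.32 ± 0.37, limma adjusted p = 0.013). Sema4d, the ligand of plexin B1 and of the immune receptor CD72, was lower at 2 of its 20 windows. In the Sema4d window at chr13:51756289-51757289, in intron 2, the values were 41.1 and 8.21 tags in EKO microglia, against 35.3 and 37.8 tags in WT microglia. The deposited values of the genotypes overlapped there because EKO library 1 was high, and the difference after normalization was −1.38 ± 0.40 (limma adjusted p = 0.016). In the nuclei the same window held 107 to 122 tags in Olig2 and 28.3 to 40.0 tags in NeuN libraries. The PU1 libraries held 31.0 and 9.13 tags in EKO and 0 and 45.9 tags in WT. The part of other cell types in this difference was not tested. Sema4g, also of class 4, was lower at 2 overlapping windows just upstream of its TSS (chr19:44987115-44988115), with 36.1 and 8.96 tags in EKO microglia, against 41.0 and 26.9 tags in WT microglia (log2 −1.25 ± 0.40, limma adjusted p = 0.026). The genotypes overlapped there as deposited. Sema3f, a secreted ligand of neuropilin 2, had 1 tested window, 3.2 kb upstream of the TSS, with 19.1 and 4.48 tags in EKO and 29.6 and 29.9 tags in WT microglia (log2 −2.19). Sema4a had 1 of 3 windows lower, 12.5 kb from an annotated start, with 12 and 8.21 tags in EKO and 28.3 and 16.9 tags in WT microglia (log2 −1.62). At both genes the EKO libraries lay below both WT libraries.

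Ephrins, the membrane-tethered ligands of Eph receptors, had 2 higher and 4 lower among 25 tested windows. Both higher windows lay in the intergenic region 305.2 to 306.6 kb downstream of the TSS of Efna5, a ligand of EphA receptors that is held in the membrane by a lipid anchor. The leading one (chr17:62574186-62575186) held 112 and 44.0 tags in EKO microglia, against 6.16 and 3.98 tags in WT microglia (log2 3.03 ± 0.40, limma adjusted p = 1.4e-05). The authors' table assigns it to Efna5 as the nearest TSS only, and at such distances the gene it acts on is unknown. A separate intergenic window 130.3 kb upstream of Efna5 was lower, with 128 and 31.4 tags in EKO and 152 and 94.5 tags in WT microglia, which overlapped as deposited. Each transmembrane ephrin-B gene had 1 lower window. For Efnb1 it lay 64.4 kb downstream of the TSS and held 9.03 and 6.72 tags in EKO microglia, against 68.2 and 40.8 tags in WT microglia (log2 −3.20 ± 0.47, limma adjusted p = 4.7e-05). For Efnb2 it lay 421 kb downstream and held 22.1 and 17.9 tags in EKO microglia, against 74.7 and 70.7 tags in WT microglia (log2 −2.22). Neither locus showed any overlap between the genotypes. For Efnb3 it lay in the last exon, with 73.3 and 24.6 tags in EKO and 92.8 and 65.7 tags in WT microglia (log2 −1.14), and there the genotypes overlapped as deposited. Of the netrins, Ntn1, the secreted ligand of Dcc and Unc5 receptors, was lower at 1 of 2 tested windows, 20.6 kb upstream of its TSS (chr11:68406929-68407929), with 19.1 and 13.4 tags in EKO microglia, against 28.7 and 29.9 tags in WT microglia (log2 −1.31 ± 0.45, limma adjusted p = 0.039). Slit genes had 0 tested windows.

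Neuropilins and plexins, the receptors of semaphorins, held most of the receptor changes. Nrp2, the neuropilin that binds Sema3f, was lower at 7 of 13 tested windows. An intergenic cluster 23.6 to 24.5 kb upstream of Nrp2, which holds the SALL1 peak printed above, was lower at 3 overlapping windows. Its leading window (chr1:62678607-62679607) held 14.1 and 4.48 tags in EKO microglia, against 68.2 and 51.8 tags in WT microglia, with no overlap between genotypes (log2 −3.35 ± 0.43, limma adjusted p = 8.2e-06). At the Nrp2 promoter the difference was smaller, with 136 and 34.4 tags in EKO and 163 and 125 tags in WT microglia in the window centred 27 bp from the TSS (log2 −1.31 ± 0.22). The genotypes overlapped there as deposited. A window in intron 2 of Nrp2 was lower as well (log2 −1.34), and 1 window 125.4 kb upstream, inside intron 21 of the neighbouring gene Pard3b, was higher (49.2 and 23.1 tags in EKO, against 7.39 and 8.96 tags in WT; log2 1.41). None of the 6 tested windows of Nrp1, the other neuropilin, was called.

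Plexin genes had 4 higher and 11 lower among 38 tested windows, and the 2 genes with higher windows were Plxna1 and Plxna3. Plxna1 encodes the plexin that pairs with neuropilin 1 for class 3 semaphorins and also receives Sema6d. Its only 2 tested windows overlap each other 59.5 kb upstream of the TSS, in intron 4 of Chchd6, and the leading one (chr6:89421604-89422604) held 214 and 50.0 tags in EKO microglia, against 9.85 and 5.97 tags in WT microglia (log2 3.09 ± 0.34, limma adjusted p = 1.6e-06). Plxna3, the partner of neuropilin 2 for Sema3f, gained H3K27ac at its own promoter. The window at chrX:74328268-74329268 held 70.3 and 24.6 tags in EKO microglia, against 11.1 and 13.9 tags in WT microglia (log2 1.23 ± 0.39, limma adjusted p = 0.025). It was not called with DESeq2 (log2 1.48, DESeq2 adjusted p = 0.054).

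The other called plexin windows were lower. Plxna4, a plexin for class 3 and class 6 semaphorins, was lower at 4 of 5 tested windows, which overlap at its TSS. The window at chr6:32587731-32588731 held 57.2 and 22.4 tags in EKO microglia, against 66.1 and 64.7 tags in WT microglia (log2 −1.15 ± 0.28, limma adjusted p = 0.0048). All 12 tested windows of Plxna4os1 lie within the span of Plxna4, and 3 of them were lower. The leading one (chr6:32479797-32480797, in intron 3 of Plxna4) held 181 and 73.9 tags in EKO microglia, against 266 and 210.0 tags in WT microglia (log2 −1.26 ± 0.18, limma adjusted p = 2.6e-05). ChIP-seq has no strand, so acetylation there cannot be assigned to either gene. Plxnc1, the receptor of Sema7a, was lower at 4 overlapping windows in its intron 20 and had 3 further windows that were not called. At chr10:94827881-94828881 the values were 18.1 and 5.23 tags in EKO microglia, against 34.5 and 26.9 tags in WT microglia (log2 −2.16 ± 0.49, limma adjusted p = 0.0028). Plxnb3, a receptor of Sema5a, was lower at both of its tested windows within the gene. The window at chrX:73764989-73765989 held 63.2 and 23.9 tags in EKO microglia, against 114 and 65.7 tags in WT microglia (log2 −1.41 ± 0.26, limma adjusted p = 0.00041). Plxnb2, a receptor of class 4 semaphorins, was lower at 1 of 17 windows, in intron 3, with 41.1 and 11.2 tags in EKO and 37.4 and 37.8 tags in WT microglia (log2 −1.17), where the genotypes overlapped as deposited.

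Among Eph receptors, Epha2 was the only gene with a called window, and 2 of its 12 tested windows were lower. In the window 879 bp upstream of the Epha2 TSS (chr4:141299842-141300842) the values were 21.1 and 6.72 tags in EKO microglia, against 52.5 and 19.9 tags in WT microglia (log2 −1.93 ± 0.48, limma adjusted p = 0.0055). As deposited the genotypes overlapped slightly. The second, in intron 3, held 13.1 and 8.96 tags in EKO and 25.4 and 19.9 tags in WT microglia (log2 −1.58). Robo2, a Slit receptor, had a single tested window 67.0 kb upstream of its TSS (chr16:75159301-75160301), which held 61.2 and 16.4 tags in EKO microglia, against 4.11 and 3.98 tags in WT microglia (log2 2.03 ± 0.55, limma adjusted p = 0.0098). Both EKO libraries lay above both WT libraries there. No Unc5 or Dcc window passed the filter.

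**Figure D2:**
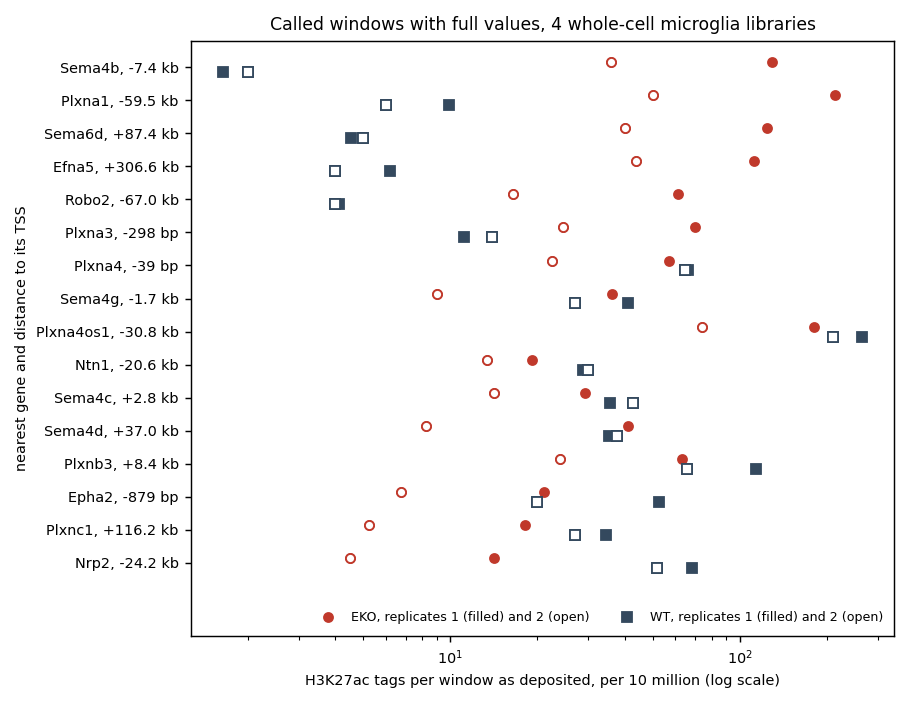
H3K27ac tags as deposited, per 10000000 and on a log scale, at 16 called windows, labelled by nearest gene and distance to its TSS. Red circles are EKO libraries and dark squares WT libraries, filled for replicate 1 and open for replicate 2. EKO library 1 lies right of EKO library 2 at every window, and the top 6 windows, down to Plxna3, have both EKO libraries right of both WT libraries.

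In total 22 guidance genes had a called window and 9 had tested windows of which none was called (Efna1, Epha4, Nrp1, Plxnd1, Robo3, Sema3b, Sema6a, Sema6b and Sema6c). A further 29 genes had windows that were all under the filter, and 10 were nearest to no window (Dcc, Epha6, Epha10, Ephb4, Sema3a, Sema3d, Sema3e, Slit2, Unc5c and Unc5d). By place, 18.4% of tested guidance windows were promoters or 5′ ends, 52.4% introns and 26.5% intergenic, against 25.1%, 45.5% and 23.9% of all tested windows. As deposited, both EKO libraries lay above both WT libraries at 29 of the 185 windows, where 17.8% of all windows did, and below both at 29, where 6.12% did. All 14 windows called higher and 25 of the 37 called lower were among these.

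PU1 nuclei came from separate libraries and gave a second look at the called windows. At 12 of the 14 windows higher in EKO microglia, both EKO PU1 libraries lay above both WT PU1 libraries, where 81.9% of all such windows did. For the Plxna1 window the PU1 values were 60.4 and 50.3 tags in EKO, against a listing at 0 in both WT libraries, and for the Sema4b window 43.4 and 40.6 tags in EKO, against 0 and 18.3 tags in WT. The leading Efna5 window had 98.0 and 73.8 PU1 tags in EKO and was listed at 0 in both WT libraries. The exceptions were Robo2, with 31.5 and 0 tags in EKO and 0 in both WT libraries, and the Sema6d window 209 bp into the gene, with 47.3 and 58.6 tags in EKO, against 0 and 48.7 tags in WT.

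At the lower windows the result turned on PU1 WT library 1, the library with few listed regions. Both EKO PU1 libraries lay below WT library 2 at 34 of 37 windows, where 84.9% of all such windows did, but below both WT libraries at only 4, where 16.4% did. The leading Nrp2 window had 7.83 and 0 PU1 tags in EKO, against 20.3 and 107 tags in WT. The Efnb2 window was listed at 0 in both EKO libraries and had 11.7 and 58.1 tags in WT. The Nrp2 promoter window showed the other pattern, with 42.6 and 37.4 tags in EKO, between the 23.9 and 104 tags of the WT libraries. In the other 3 windows (Efnb3, Epha2 upstream of the TSS and 1 of Plxnc1) no PU1 library listed a region. Regions were also listed in all 4 NeuN libraries at 3 of the 14 higher and 12 of the 37 lower windows, and in all 4 Olig2 libraries at 5 and 9. The shares over all higher and lower windows were not counted, so these counts cannot be read as a trait of guidance windows.

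**Figure D3:**
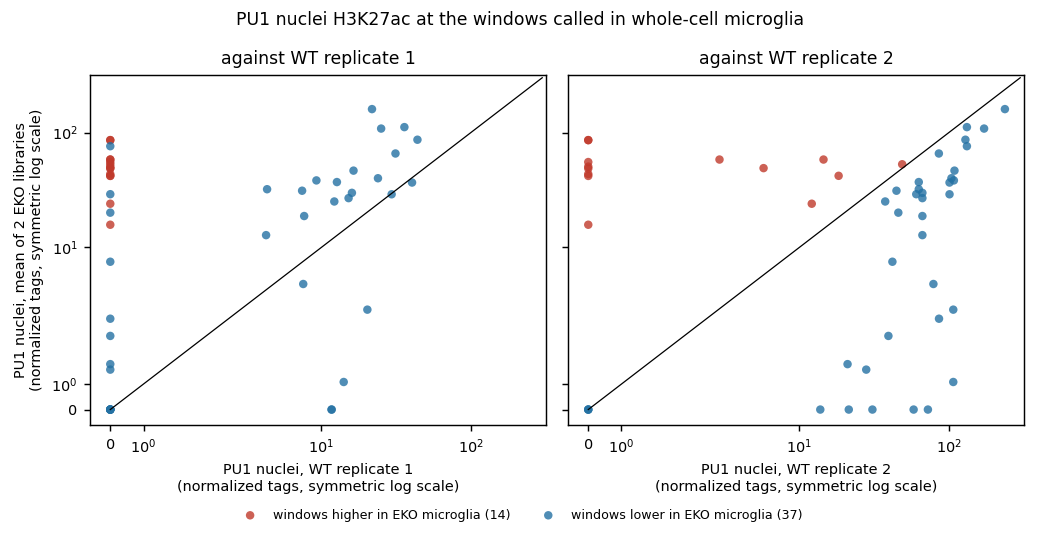
H3K27ac in PU1 nuclei at the windows called in whole-cell microglia, as the mean of 2 EKO libraries (vertical) against WT replicate 1 (left panel) or WT replicate 2 (right panel), in normalized tags on a symmetric log scale. Red points are windows higher in EKO microglia and blue points windows lower. All red points lie on or above the line of equality in both panels, while most blue points lie above it against WT replicate 1 and below it against WT replicate 2.

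The nuclei were then used to ask in which brain cell type each guidance gene had an active promoter, taken as the tags of listed H3K27ac regions within 2 kb of the TSS. A value of 0 means that no region was listed there. A single start was used per gene, so these values say nothing of other starts of the same gene. Of the 70 promoters, 9 (12.9%) had a region in all 4 PU1 libraries, where 16.8% of all genes did, 55 (78.6%) had one in all 4 NeuN libraries, where 45.4% did, and 29 (41.4%) had one in all 4 Olig2 libraries, where 36.2% did. The 9 in PU1 nuclei were Epha2, Nrp1, Nrp2, Plxna4, Plxna4os1, Plxnb2, Sema4b, Sema4c and Sema4g, and 50 of the 70 had no region in any PU1 library at the start used. At other annotated starts, seen in the microglia windows, Sema4a had 99.0 and 65.0 tags in EKO and 0.42 and 99.6 tags in WT PU1 libraries, and Sema6b, which counts among the 50, had 45.1 and 47.0 tags in EKO and 0 and 41.7 tags in WT PU1 libraries. At the starts used, Sema3g and Sema6c were listed in no library of any type, although Sema6c had 12.2 to 31.3 tags in NeuN libraries at another start, and Ephb4 and Robo4 in 1 Olig2 library each, which left 66 promoters tested among 16317.

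Between PU1 and NeuN nuclei, 2 of 66 guidance promoters were higher in PU1, where 9.89% of all promoters were, and 48 were lower, where 39.6% were (limma, adjusted p below 0.05, fold above 2). Between PU1 and Olig2 nuclei, 5 were higher, where 10.9% were, and 25 lower, where 24.5% were. Between NeuN and Olig2 nuclei, 38 were higher in NeuN, where 25.3% were, and 12 lower, where 9.76% were. The libraries differed in how much of the genome was listed, with medians over all promoters of −1.88, −0.85 and 0.57 on the log2 scale in these contrasts, against −5.60, −0.09 and 3.63 over the guidance promoters. With quantile normalization, which brought the medians over all promoters to 0.13, 0.13 and −0.05, the guidance counts were 9 higher and 45 lower for PU1 against NeuN, 21 and 24 for PU1 against Olig2, and 39 and 16 for NeuN against Olig2. Of all 16317 promoters, 4485 and 4448, 3967 and 3631, and 3832 and 3686 were then called in the same order.

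**Figure D4:**
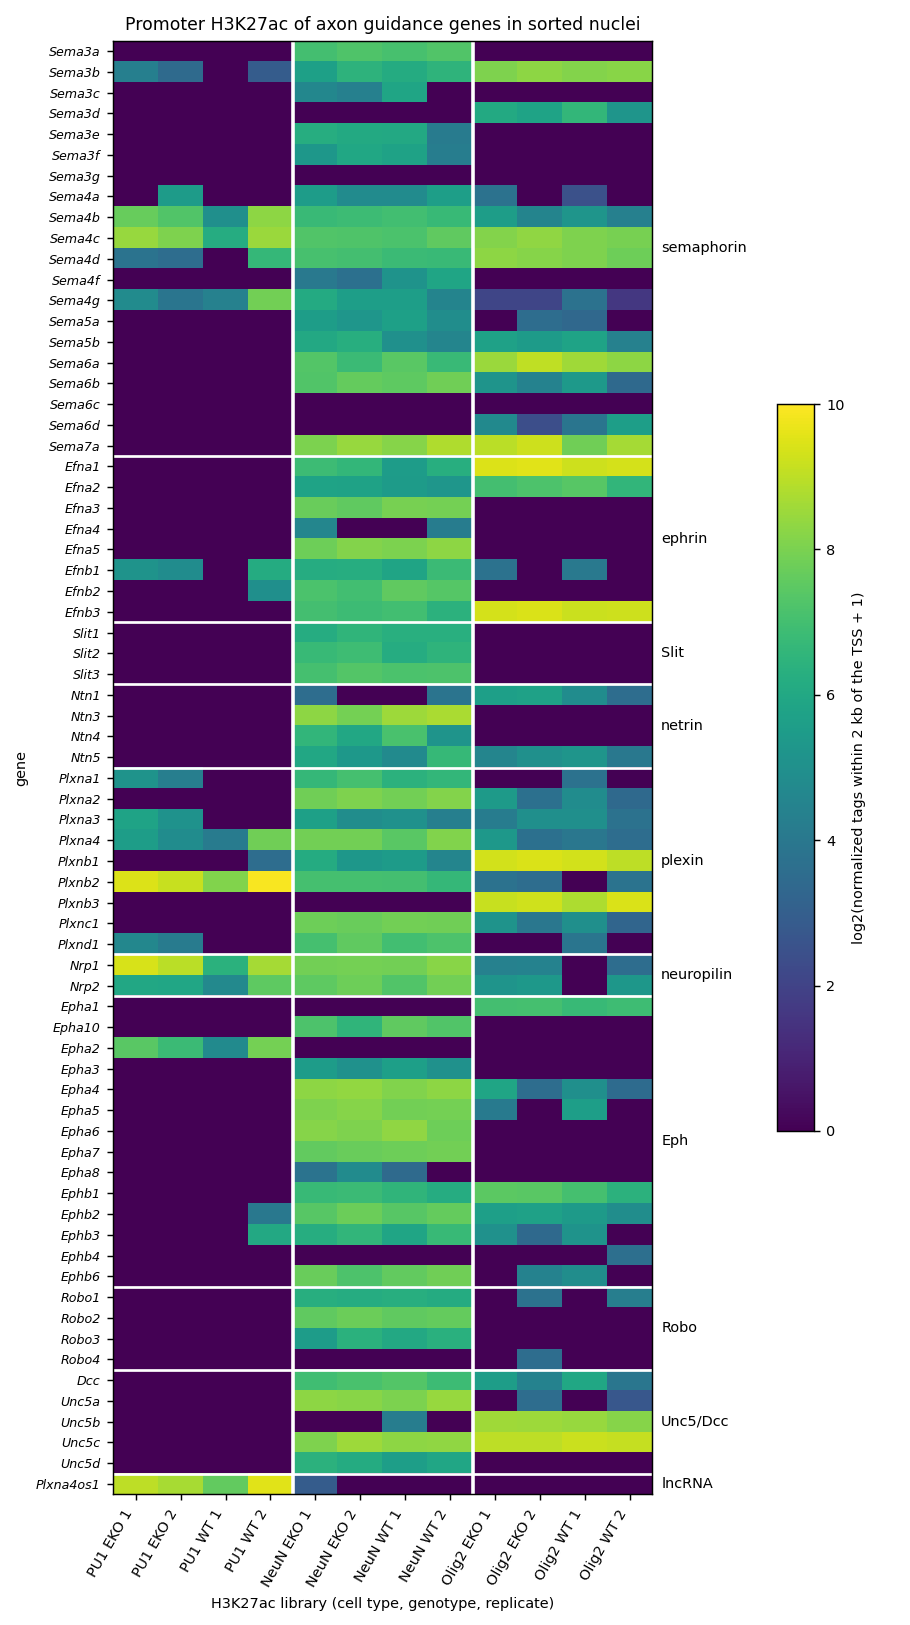
H3K27ac tags of listed regions within 2 kb of the TSS of the 70 guidance genes (rows, by family) in 12 nuclei libraries (columns), as log2(tags + 1) from dark (0, no region listed) to yellow. All 4 PU1 columns are filled for 9 rows, all 4 NeuN columns for 55 rows, and the Slit rows are filled in NeuN alone.

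The promoters listed in all PU1 libraries were a small group of receptors and class 4 semaphorins, with the noncoding Plxna4os1. Only Epha2 and Plxna4os1 among them were called higher in PU1 than in NeuN nuclei. The others were also listed in all NeuN libraries. Plxnb2 had the highest level of all guidance promoters in PU1 nuclei, with 711 and 567 tags in EKO and 277 and 949 tags in WT PU1 libraries, against 99.8 to 132 tags in NeuN and 0 to 13 tags in Olig2 libraries. It was higher in PU1 than in Olig2 nuclei (log2 6.38, limma adjusted p = 0.00043), while its difference from NeuN of 2.22 missed the threshold (limma adjusted p = 0.055). Nrp1, a neuropilin that also binds VEGF, had 679.9 and 494 tags in EKO and 83.8 and 405 tags in WT PU1 libraries, 231 to 301 tags in NeuN and 0 to 20.6 tags in Olig2 libraries. Its PU1 and NeuN levels overlapped (log2 0.38, limma adjusted p = 0.73), and both were above Olig2 (log2 5.26 and 4.88). The promoter window of Nrp1 also covers the start of the microRNA gene Mir1903. Plxna4os1 had 514 and 412 tags in EKO and 192 and 751 tags in WT PU1 libraries, at most 6.55 tags in NeuN and was listed at 0 in Olig2, and was higher in PU1 than in NeuN (log2 7.98, limma adjusted p = 2.1e-05). Epha2, an Eph receptor, was the only guidance gene listed in all PU1 libraries and in no library of the other types, where 2.49% of all promoters tested were. It had 174 and 113 tags in EKO and 26.3 and 239 tags in WT PU1 libraries.

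The class 4 semaphorins Sema4b, Sema4c and Sema4g were listed in all 12 nuclei libraries. Sema4g was higher in PU1 than in Olig2 nuclei (log2 2.87, limma adjusted p = 0.030), with 27.1 and 13.8 tags in EKO and 20.2 and 236 tags in WT PU1 libraries, so WT library 2 alone was high. Sema4c had 72.0 to 361 tags in PU1, 141 to 186 tags in NeuN and 245 to 324 tags in Olig2 libraries, and no contrast between types was called. Plxna4 had 16.8 to 226 tags in PU1 and 171 to 276 tags in NeuN libraries and was higher in NeuN than in Olig2 (log2 3.69, limma adjusted p = 0.0087).

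Among neuronal promoters, 18 were, at the start used, listed in all NeuN libraries and in no PU1 or Olig2 library, 27.3% of those tested, where 8.48% of all promoters were. They were the ligands Efna3, Efna5, Ntn3, Ntn4, Sema3a, Sema3e, Sema3f, Sema4f, Slit1, Slit2 and Slit3 and the receptors Epha3, Epha6, Epha7, Epha10, Robo2, Robo3 and Unc5d. The whole Slit family and 2 of the 4 Robo genes are among them. Ntn3, a netrin, had 242 to 428 tags, Epha6 219.6 to 327 tags, Efna5 219 to 317 tags, Efna3 187 to 249 tags and Epha7 194 to 236 tags in the NeuN libraries, the 5 with the largest differences from Olig2 (limma adjusted p = 1.7e-08 for each). All their PU1 and Olig2 values were set to 0 because no region was listed, so those groups added no spread to the fit. These p-values therefore do not measure a spread between libraries of both types. Other promoters were strong in NeuN without being confined to it. Epha4, which binds both ephrin classes, had 275 to 336 tags in NeuN and 10.4 to 57.7 tags in Olig2 libraries and was listed at 0 in PU1. Unc5a, a netrin receptor, had 262 to 349.7 tags in NeuN and at most 10.8 tags in Olig2 libraries. Dcc, the main attractive netrin receptor, had 116 to 160.2 tags in NeuN and 14.2 to 61.9 tags in Olig2 libraries and was listed at 0 in PU1.

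The oligodendrocyte lineage had its own set. Plxnb3, Epha1, Sema3d and Sema6d were listed in all Olig2 libraries and in no other at the start used, 6.06% of those tested, where 2.49% of all promoters were. Plxnb3 stood out among them, with 434 to 697 tags in Olig2 libraries (limma adjusted p = 1.7e-08 for NeuN minus Olig2). Its NeuN and PU1 values were all set to 0 and added no spread to that fit. Epha1 had 107 to 131 tags, Sema3d 36.2 to 97.1 tags and Sema6d 4.23 to 47.6 tags. At its earlier start, in the window 209 bp into the gene, Sema6d was listed in all types, with 47.3 and 58.6 tags in EKO and 0 and 48.7 tags in WT PU1 libraries, 42.2 to 60.9 tags in NeuN and 62.2 to 83.3 tags in Olig2 libraries. Efna1, an ephrin-A, and Efnb3, an ephrin-B, were present in both neural types but lower in NeuN, at 45.5 to 116 and 84.1 to 128 tags in NeuN, against 608 to 756 and 593 to 683 tags in Olig2. Plxnb1, the receptor of Sema4d, had 22.6 to 70.9 tags in NeuN and 514 to 693 tags in Olig2 libraries. Unc5b, a netrin receptor also used in blood vessels, had 0 to 17.8 tags in NeuN and 292 to 380.4 tags in Olig2 libraries. Unc5c and Sema7a, the ligand of plexin C1, were high in both neural types, with Unc5c at 269.9 to 372 tags in NeuN and 513 to 587 tags in Olig2, and Sema7a at 259 to 447 and 225 to 598 tags, and neither differed between these types beyond the threshold. At the starts used these promoters were at 0 in every PU1 library, except Plxnb1, which 1 PU1 library listed at 10.8 tags. The Plxnc1 promoter, the receptor side of Sema7a, was also at 0 in every PU1 library and had 209 to 235 tags in NeuN.

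The effect of the enhancer deletion on these promoters was tested within each nuclei type. In PU1 nuclei 1 guidance promoter was higher in EKO, where 3.21% of all promoters were, and 0 were lower, where 0.135% were. In limma, 0 of the guidance promoters were called in NeuN or in Olig2 nuclei, where 0.833% and 0.772% of all promoters were in either direction. At an unadjusted p under 0.05 there were 4 higher and 0 lower in PU1, 2 higher and 1 lower in NeuN, and 0 in Olig2. The promoter called in PU1 nuclei was that of Plxna3, with 54.2 and 32.9 tags in EKO and no listed region in either WT library (limma adjusted p = 0.0011). The WT values were thus set to 0 and added no spread to the fit. In PU1 nuclei the Plxna3 promoter was not called after quantile normalization or with only regions at 8 or more times input. The same promoter was called higher in EKO whole-cell microglia with limma and edgeR. There it was not called with DESeq2, on the values as deposited or with a pseudocount of 8. The counts in PU1 nuclei depended on the WT libraries. Without WT library 1, 4 promoters were lower in EKO (Efnb2, Ephb2, Plxnb1 and Sema4d) beside Plxna3, and without WT library 2, 8 were higher (Epha2, Plxna1, Plxna3, Plxnd1, Sema3b, Sema4b, Sema4c and Sema4d), so that Sema4d was called in opposite directions. The whole promoter set shifted with these libraries, since 686 promoters were higher and 479 lower of all 16317 without WT library 1, and 7360 higher and 36 lower without WT library 2. With either left out, the remaining WT library was assumed to vary like the other groups.

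SALL1, SMAD4 and p300 peaks at these genes were counted from 1 reproducible list per group, which has no spread between libraries and allows no test. The study describes longer WT SALL1 and SMAD4 lists than those used here, so a missing peak is not evidence that either factor was absent. A WT SALL1 peak overlapped the promoters of 3 of 70 guidance genes (Plxna4os1, Plxnb2 and Sema4g), where 7.58% of all promoters had one. SMAD4, the shared effector of TGF-beta signalling, had WT peaks at 5 (Nrp1, Plxna4, Plxna4os1, Plxnb2 and Sema4b), where 4.69% did, and the co-activator p300 at 8 (Efnb1, Efnb2, Nrp1, Nrp2, Plxna4, Plxna4os1, Sema4c and Unc5b), where 10.9% did. The SMAD4 libraries labelled mutant, whose descriptions and inputs name EKO, had 1 SMAD4 peak at a guidance promoter, that of Plxna4os1. It came from a shorter list (2333 peaks, against 4024 in WT) that covered 3.18% of all promoters. SALL1 peaks of EKO microglia, 7 in all, touched 0 guidance promoters, and those of PWK and SPRET, with shorter lists of 3627 and 2245 peaks against 15410 in WT, touched 1 (Plxnb2) and 0.

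At the tested windows the same lists were counted. WT SALL1 peaks overlapped 46 of the 185 tested windows, where 26.5% of all windows had one, SMAD4 peaks 39, where 11.1% did, and p300 peaks 41, where 20.6% did. By call, SALL1 peaks lay in 5 of the 14 higher windows (at Plxna1, Sema4b and Sema6d) and 9 of the 37 lower windows (at Nrp2, Plxnc1, Sema4a, Sema4b and Sema4g), beside 23.1% and 28.1% of all higher and lower windows. SMAD4 peaks lay in 0 of the 14 higher windows and 10 of the 37 lower ones (at Epha2, Nrp2, Plxna4, Plxnc1, Sema4a and Sema4b), beside 2.90% and 13.2% of all. At the Nrp2 cluster upstream of the TSS and at the 2 higher Sema4b windows the SPRET list also held a SALL1 peak. The SMAD4 peaks at the Plxna4 TSS and in Plxnc1 intron 20 were in the WT list and not in the shorter list labelled mutant. The lower Epha2 window in intron 3 had a SMAD4 peak in both lists, and the lower Efnb3 window had one in the list labelled mutant only.

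Genes that act with the guidance receptors were read from the same fits. Of 45 effector genes, which act inside the cell below the receptors, 250 windows were tested. In EKO microglia 2 were higher (at Srgap3 and Trio), where 8.68% of all tested windows were, and 31 lower, where 7.56% were. Their median log2 difference was −0.28, against −0.03 over all windows. The lower ones were 11 at Trio, a guanine nucleotide exchange factor, 6 at Rac1, 5 at Rock2, 3 each at Fyn and Srgap2, and 1 each at Ablim1, Limk1 and Vav2. Of 23 co-receptor and related genes, 63 windows were tested, with 7 higher and 5 lower, beside the same 8.68% and 7.56% of all windows. The higher ones were 4 of 5 windows at Cd72, the immune receptor of Sema4d, both windows of Dscam and 1 at Plxdc2. In the nuclei, 39.6% of all promoters were lower and 9.89% higher in PU1 than in NeuN. Among 44 effector promoters 22 were lower and 6 higher. Among 20 co-receptor promoters 16 were lower and 0 higher (2 higher at an unadjusted p under 0.05).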

How the data were processed

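The authors mapped ChIP-seq reads to mm10 with Bowtie2, made tag directories with HOMER and used DESeq2 for their own comparisons; the submitters' processing notes give no versions. The deposited microglia table holds a signal, H3K27ac tags at a common depth of 10000000, for 133129 windows (1000 bp each, placed on merged ATAC-seq peaks) and names the nearest gene. Per the file headers, each nuclei list holds, for the regions called in that library, their tags as a normalized signal and their ratio to input as a fold. The deposited peak lists hold an enrichment score per peak reproducible between libraries, used here only to rank peaks within a list. Input libraries (30 were not tested) enter only through the authors' region and peak calls.

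The depth of each library was read from the step between its values, which is the scaled worth of 1 tag. Within tolerances of 0.05 tag (windows) and 0.1 tag (nuclei values under 60), 100% of values came out whole, except 80.8% in Olig2 WT library 2, whose depth is therefore uncertain. Libraries of a group differed by more than sampling noise (chi-square per degree of freedom 2.90 in EKO and 3.21 in WT microglia) and each counted as 1. Windows with a mean above 16 normalized tags were tested on quantile-normalized log2(tags + 1) with limma 3.58.1 (R 4.3.3, trended prior variance). Quantile normalization was chosen because EKO library 1 was high throughout in earlier results. Promoters in nuclei held the tags of listed regions within 2 kb of 1 TSS per gene, spread evenly over each region, with 0 where none was listed. All 12 nuclei libraries in 6 groups shared 1 limma fit on log2(tags + 1), over genes with a region in at least 2 libraries. A group without a listed region in any library held only 0 and added no spread to the fit. The p-values at such promoters are therefore too small to be read as a spread between libraries. In the microglia windows a pseudocount of 1 understates changes of low values. In the nuclei, where unlisted promoters were set to 0, the size of a difference depends on the pseudocount. At the Plxna3 promoter in PU1 nuclei, EKO minus WT was 5.43 with a pseudocount of 1 and 2.66 with 8. The guidance median for PU1 minus NeuN was −5.60 and −2.87. Calls needed a Benjamini-Hochberg adjusted p below 0.05, over all windows or promoters, and a fold above 2. Replicate numbers paired no samples, since deviations of same-numbered libraries correlated at 0.036 between genotypes in microglia and at −0.112 to 0.0702 between nuclei groups.

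Peaks and regions were matched by an overlap of at least 1 bp. Motifs were searched on both strands. Whole tags were also tested with DESeq2 1.42.0 and with edgeR 4.0.16, and the fits were tested on simulated data. Python 3.11.15, numpy 2.4.6, pandas 2.3.3 and matplotlib 3.10.9 were used for counting and plots. Named windows were the called window with the smallest p of each gene with 2 or more called windows and of each family. Named promoters were the 5 largest called differences per contrast and direction and those listed in 1 cell type only, and every gene with a SALL1 or SMAD4 peak at its promoter was named. Other genes given with values (Sema3f, Sema4a, Efnb1, Efnb2, Efnb3, Plxnb2 windows; Nrp2, Plxna4, Sema4c, Plxnb1, Plxnc1 and Dcc promoters) were chosen after their values were seen. The members, gene lists and marker lists were chosen with earlier results of these data known. A matched protein table was not used here.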

Additional observations from a re-analysis of the deposited data

Results flagged for a closer look

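The EKO minus WT difference at the Plxna3 promoter was not the same in the 3 nuclei types. It was 4.83 ± 0.82 larger in PU1 than in NeuN nuclei on the log2 scale (SE; limma interaction, Benjamini-Hochberg adjusted p = 0.016), where 466 promoters of all genes had a larger and 95 a smaller difference in PU1. It was 5.22 ± 0.82 larger in PU1 than in Olig2 nuclei (limma adjusted p = 0.012), where 467 promoters were larger and 67 smaller. Both EKO PU1 libraries listed a region there, at 54.2 and 32.9 tags, and neither WT PU1 library did. The WT PU1 values were thus set to 0 and added no spread to the fit. WT library 1 of the PU1 nuclei listed only 11149 regions in all, and the part of that in the difference was not tested, while WT library 2, with 36057 regions, was also at 0. The call against NeuN was lost after quantile normalization (1.89, adjusted p = 0.65), with a pseudocount of 8 (2.16, adjusted p = 0.19), at a fold over input of 8 or more (4.83, adjusted p = 0.62), without PU1 EKO library 1 (4.48, adjusted p = 0.066) and without NeuN EKO library 2 (4.44, adjusted p = 0.067), all in limma. The call against Olig2 was lost under the same 3 settings (3.86, 2.50 and 7.32, limma adjusted p = 0.27, 0.14 and 0.19). No group held 4 or more libraries, so single libraries were not tested as outliers.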

How the results depend on the processing

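No value called with all libraries changed sign under a setting tried, but Sema4d in PU1 nuclei, which was not called with all libraries, was called lower in EKO without WT library 1 (−2.97) and higher without WT library 2 (3.69). The 14 higher and 37 lower guidance windows in EKO microglia became 6 and 0 on the values as deposited. With a mean above 32 tags they became 7 and 16, beside 2944 and 2521 of all 37113 windows. The lower ones became 22 with DESeq2 and 21 without a filter, where 2911 of all 133129 windows were lower. Leaving out 1 library gave 0 to 6 higher and 0 to 16 lower. Guidance promoters higher in PU1 than NeuN numbered 9 after quantile normalization (2 to 5 with 1 library left out). Those higher in PU1 than Olig2 numbered 21 after quantile normalization and 2 in WT libraries alone (4 to 8 with 1 left out). In WT libraries alone, 634 of all 16317 promoters were higher in PU1 than Olig2. NeuN against Olig2 gave 22 higher and 6 lower in WT libraries alone, where 2247 and 779 of all promoters were. For EKO against WT in PU1 nuclei the count of higher promoters was 0 after quantile normalization, 2 with a pseudocount of 8 and 0 at a fold over input of 8 or more (1 to 8 with 1 library left out), and that of lower ones 2 after quantile normalization (0 to 4). In NeuN nuclei 1 was higher at a fold over input of 8 or more, with 0 to 3 higher and 0 to 3 lower when 1 library was left out, and in Olig2 nuclei 0 to 2 were lower. Of all 16317 promoters in PU1 nuclei, 336 were higher and 269 lower in EKO after quantile normalization, and 514 were higher with a pseudocount of 8. At a fold over input of 8 or more, 433 of 15905 were higher in PU1 nuclei and 111 in NeuN nuclei. Within 10 kb of the TSS, 8 promoters had a SALL1 and 8 a SMAD4 peak. With only the peaks that scored above the median of each list, SMAD4 peaks lay at 1 promoter and 18 windows, p300 peaks at 2 promoters and 22 windows, and SALL1 peaks in 30 windows. The shares over all genes and windows at these peak settings are not given here. These peak counts therefore cannot be read as a trait of guidance genes. The cause of these shifts was not tested, apart from the smaller number of windows or peaks that a stricter setting leaves.

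Libraries share only a replicate number. With the number as a replicate block, 16 guidance windows were higher and 38 lower, beside 4958 and 4484 of all windows. The promoter counts were 2 and 47 for PU1 against NeuN, beside 1564 and 6189 of all promoters. They were 5 and 25 for PU1 against Olig2 (1692 and 3813 of all) and 38 and 10 for NeuN against Olig2 (3985 and 1530 of all). Plxna3 remained the 1 guidance promoter called in PU1 nuclei, where 500 of all promoters were higher in EKO. The PU1 numbers looked crossed (correlation −0.112), and a crossed block, added after seeing the data, gave 2 and 48, 6 and 25, and 39 and 10. Of all promoters, 1636 and 6580, 1812 and 4059, and 4165 and 1621 were then called in the same order. Of the 16 windows given in full, 4 stayed called as deposited, 15 with edgeR and 11 with DESeq2. Depth limits windows under 16 tags, where 29 guidance genes had windows that were not tested.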
